A study of Homo sapiens with 4 samples.

Results

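Among the RNAs recovered with EXOSC10 from a breast carcinoma line, 5 abundant or well studied long non-coding RNAs (lncRNAs) were examined: MALAT1 and NEAT1, which stay in the nucleus, and NORAD, OIP5-AS1 and CYTOR, which are largely cytoplasmic. They were listed by symbol, with earlier results of these data known, and each was kept whatever its values. All 5 were found among the 12838 gene symbols of the table, as 10 of its 24015 entries. MALAT1, NEAT1, NORAD and OIP5-AS1 were the 1st, 2nd, 5th and 11th of 632 lncRNA symbols by mean level, while CYTOR was the 235th, so CYTOR was not abundant in these libraries. Under the scaling used, none of the 4 that could be compared differed 2-fold between any of the libraries set against each other. This depends on the scaling. With total counts or the total of non-ribosomal reads as the scale, all 4 were at least 2-fold higher with EXOSC10 than with IgG, in untreated and in doxycycline-treated cells. With at least 100 reads, each lay above the median gene both in the EXOSC10 library over the IgG library and in the doxycycline library over the untreated one. The median of all lncRNAs compared, these 4 included, was above the median gene in those comparisons too. The 4 are part of that median, as 4 of 15 lncRNAs in EXOSC10 over IgG in untreated cells. No median without them was taken, so whether this place is particular to them is not settled.

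A lncRNA is a transcript without a long reading frame that acts as RNA. MALAT1 sits in nuclear speckles, domains rich in splicing factors, and NEAT1 is the scaffold of paraspeckles, bodies built on it by proteins such as NONO and SFPQ. Both lie next to each other in the genome, and MALAT1 and the long form of NEAT1 end in a genomically encoded A-rich triple helix in place of an ordinary poly(A) tail, a structure that protects RNA from 3′ decay. NORAD binds the RNA-binding protein PUM2 in the cytoplasm, OIP5-AS1 (cyrano) binds miR-7 and ELAVL1 (HuR), and CYTOR is a lncRNA linked to growth and migration of tumour cells. EXOSC10 is the nuclear 3′ to 5′ exoribonuclease of the RNA exosome, which trims and degrades nuclear RNA.

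The cells were LM2-4175, a lung-metastatic derivative of MDA-MB-231, and all of them carried a dox-inducible CerS4 construct (a ceramide synthase) and grew in medium with puromycin and hygromycin. RNA was immunoprecipitated with an antibody to EXOSC10 or with control IgG, from untreated cells and from cells given doxycycline at 5 µg/mL for 48 h. This gave 4 libraries, 1 for each of untreated IgG, untreated EXOSC10, doxycycline IgG and doxycycline EXOSC10. No cells without the construct and no input RNA were analysed here, so the agent and the construct cannot be told apart, nor can a change of binding and a change of the RNA's level in the cells; the labels do not say whether the line was 1 clone or a pool.

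The values were deposited as counts per 1000000 reads (CPM), from which reads were estimated. The libraries held 3723335 to 7575262 reads, of which ribosomal RNA took 56.3% to 83.8%, which left 1023374 to 1229766 other reads in 3 of them and 2408198 in the doxycycline EXOSC10 library. Levels below carry TMM scaling, a trimmed mean of log ratios, with factors of 0.453 (doxycycline IgG) to 2.50 (doxycycline EXOSC10). Of the markers of the mesenchymal line, 7 of 7 had at least 10 reads in every library and summed to a scaled CPM of 718 to 1630. Of 6 luminal breast markers, 4 were in the table (ESR1 and EPCAM were not analysed here) and summed to 7.49 to 13.5, and of 5 blood and immune markers only LYZ was there, at 0 to 1.72. The mesenchymal sum was highest in untreated IgG and lowest in doxycycline EXOSC10, and its part in the results was not tested. CERS4 was not analysed here, so the induction was not checked.

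The region around the annotated starts of MALAT1 and CYTOR is shown first, because MALAT1 has more than 1 start in the annotation and CYTOR has a copy elsewhere. MALAT1 (chr11:65497738-65506516, plus strand) has 3 entries in the table and 3 RefSeq transcripts, and RefSeq gives 2 start regions, the first at chr11:65497488-65497787 and the second at chr11:65498795-65499094 (GRCh38.p14, plus strand). Each line holds 250 bases before a start in lower case and the first 50 transcribed bases in capitals.
MALAT1 start 1: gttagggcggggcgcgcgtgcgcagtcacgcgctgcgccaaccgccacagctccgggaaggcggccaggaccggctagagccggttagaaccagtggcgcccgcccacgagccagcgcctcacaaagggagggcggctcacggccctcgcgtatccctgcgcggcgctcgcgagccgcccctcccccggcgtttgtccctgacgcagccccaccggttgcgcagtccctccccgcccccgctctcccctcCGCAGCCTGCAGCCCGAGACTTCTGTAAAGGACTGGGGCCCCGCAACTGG
MALAT1 start 2: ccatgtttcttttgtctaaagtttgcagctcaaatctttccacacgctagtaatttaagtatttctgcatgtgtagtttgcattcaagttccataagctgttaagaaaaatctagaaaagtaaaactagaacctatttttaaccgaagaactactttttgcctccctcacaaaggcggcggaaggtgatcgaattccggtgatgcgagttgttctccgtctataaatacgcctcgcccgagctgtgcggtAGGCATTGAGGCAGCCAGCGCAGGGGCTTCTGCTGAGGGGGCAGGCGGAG

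CYTOR (chr2:87455427-87521518, plus strand) has a near-identical copy on the other arm of the chromosome, MIR4435-2HG (chr2:111195866-111495161, minus strand). The table held no reads under the symbol MIR4435-2HG, so its level is not given. The start regions chr2:87455177-87455476 of CYTOR and chr2:111495112-111495411 of MIR4435-2HG (RefSeq, GRCh38.p14) share an unbroken run of 241 of 300 bases, shown in capitals.
CYTOR: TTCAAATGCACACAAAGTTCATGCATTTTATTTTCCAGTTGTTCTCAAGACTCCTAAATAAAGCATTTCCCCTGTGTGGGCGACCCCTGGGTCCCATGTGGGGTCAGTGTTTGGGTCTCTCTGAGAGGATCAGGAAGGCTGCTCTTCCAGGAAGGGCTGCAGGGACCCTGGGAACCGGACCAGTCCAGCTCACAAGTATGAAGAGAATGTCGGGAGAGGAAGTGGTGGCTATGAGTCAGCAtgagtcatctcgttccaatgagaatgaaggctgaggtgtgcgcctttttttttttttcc
MIR4435-2HG: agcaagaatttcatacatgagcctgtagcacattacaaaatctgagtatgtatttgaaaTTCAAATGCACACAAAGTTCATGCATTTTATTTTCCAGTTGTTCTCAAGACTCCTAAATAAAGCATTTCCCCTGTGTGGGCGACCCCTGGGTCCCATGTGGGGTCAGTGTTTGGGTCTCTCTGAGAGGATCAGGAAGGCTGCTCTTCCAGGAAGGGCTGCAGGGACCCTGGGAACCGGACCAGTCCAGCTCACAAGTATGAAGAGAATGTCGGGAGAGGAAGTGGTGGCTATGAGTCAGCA
The shared run ends where the window of MIR4435-2HG ends. It holds the first 50 transcribed bases of MIR4435-2HG but lies upstream of the annotated start of CYTOR, so no transcribed base of CYTOR is compared here. How reads were assigned between CYTOR and MIR4435-2HG is not given in the sources used here, and the level of CYTOR is uncertain to that extent.

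MALAT1 had the highest level of the 5 in each library. Untreated cells gave 427 of its reads with IgG and 1435 with EXOSC10, and doxycycline-treated cells 933 with IgG and 5705 with EXOSC10. On the scaled CPM the same 4 libraries stood at 161, 274, 272 and 414. The lowest level was thus in the untreated IgG library and the highest in the doxycycline EXOSC10 library, with both of the others level between them.

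NEAT1 (chr11:65422798-65445540, 52197 bases from MALAT1 on the same strand) followed with 336, 1065, 516 and 3001 reads in the same order of libraries. Its scaled CPM was 126 and 203 in the untreated IgG and EXOSC10 libraries and 150.5 and 218 in the doxycycline IgG and EXOSC10 libraries. Both EXOSC10 libraries were above both IgG libraries.

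Of the cytoplasmic RNAs, NORAD (chr20:36045618-36050960) was the most abundant, with 135, 375, 212 and 1375 reads, or a scaled CPM of 50.8, 71.6, 61.8 and 99.7. Both EXOSC10 libraries were again above both IgG libraries. OIP5-AS1 (chr15:41282697-41313338) had 57.0, 164, 100 and 500 reads, or a scaled CPM of 21.4, 31.3, 29.2 and 36.3. The order of the libraries was the same as for NEAT1 and NORAD.

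CYTOR stood apart from the other 4. Untreated cells gave 0.475 of a read with IgG and 0 with EXOSC10, and doxycycline-treated cells 7 with IgG and 26.0 with EXOSC10. Against a floor of 3 reads per library, its scaled level in the doxycycline EXOSC10 library was at least 3.29-fold higher than in the untreated one. That bound takes the 26.0 reads as exact, and the counting interval of the ratio starts at 2.49-fold. Each entry of the table had at least 10.0 reads in its highest library, and CYTOR reached that only in the doxycycline EXOSC10 library. Its ratio over the untreated library therefore rests on the same value that put it in the table, and no conclusion is drawn from it. With 26.0 and 7 reads, the log2 ratio of EXOSC10 over IgG after doxycycline was -0.10, with an interval from -1.36 to 1.33 that covers both a more than 2-fold excess and a more than 2-fold deficit. At this depth no difference between the antibodies was detectable for CYTOR, and it is left out of the counts that follow, which need 100 reads over the libraries compared.

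**Figure D1:**
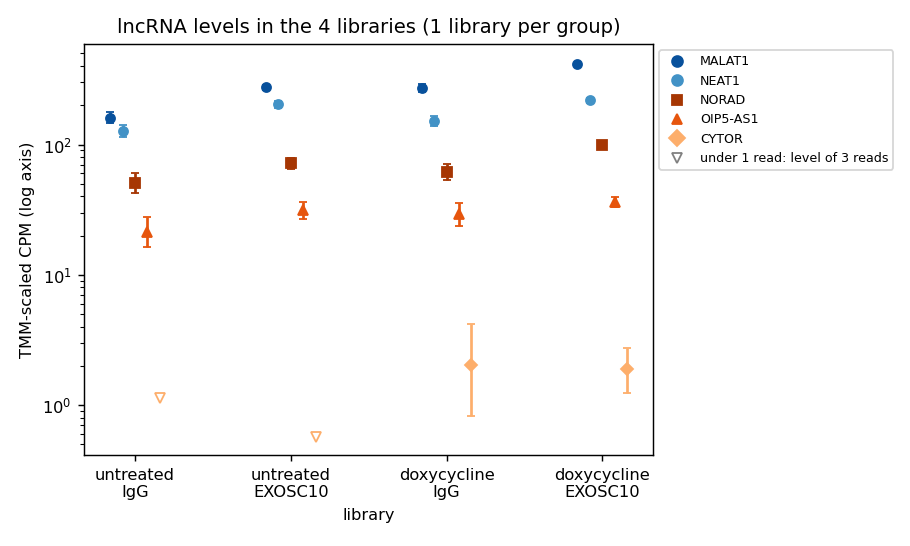
TMM-scaled CPM (log axis) of the 5 lncRNAs in the 4 libraries, with exact 95% counting intervals; open triangles mark the level of 3 reads where CYTOR had under 1 read. MALAT1 is on top in each library, at 161 to 414, and CYTOR is at the bottom, at 2.04 and 1.89 in the doxycycline libraries.

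Per kilobase of gene span the order differed from that by reads. For MALAT1, NORAD and NEAT1, over the annotated gene span, the scaled CPM per kilobase, in the same order of libraries, was 18.3, 31.2, 31.0 and 47.1 for MALAT1. It was 9.50, 13.4, 11.6 and 18.7 for NORAD, and 5.56, 8.94, 6.62 and 9.57 for NEAT1. Over these spans NORAD was above NEAT1 in each library. The span of NEAT1 is that of its long form, a larger part of the short form would raise its value per length, and so the order of NORAD and NEAT1 per length is not settled. OIP5-AS1 and CYTOR are spliced, so their spans give no level per length.

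The question of the first comparison was which RNAs were recovered with EXOSC10 beyond what IgG recovered. In untreated cells the scaled log2 ratio of EXOSC10 over IgG was 0.77 for MALAT1 (95% counting interval 0.61 to 0.93), 0.69 for NEAT1 (0.51 to 0.87), 0.49 for NORAD (0.21 to 0.79) and 0.54 for OIP5-AS1 (0.10 to 1.01). All 4 intervals lay above 0, and above the median of -0.45 over the 3618 genes with at least 100 reads. Between 80.2% (NORAD) and 89.4% (MALAT1) of those genes had a lower ratio. The position depends on the minimum of reads: with 20 reads the median gene was at 0.06 and NORAD and MALAT1 were above 66.3% and 76.1% of the genes, and with 500 reads it was at -1.52 and they were above 92.4% and 97.3%. None of the 4 was 2-fold higher or lower, where 5.36% of the genes were 2-fold higher and 36.1% 2-fold lower. Over the 15 lncRNAs compared, these 4 included, the median was 0.30. NORAD was above 60% of them and MALAT1 above 86.7%. There is 1 library per group, so these differences have no replicate check, and the intervals cover counting error only. From pooled cells, fewer cells with an RNA and less of it per cell cannot be told apart.

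After doxycycline the ratio of EXOSC10 over IgG was 0.60 for MALAT1 (0.50 to 0.71), 0.53 for NEAT1 (0.40 to 0.67), 0.69 for NORAD (0.48 to 0.91) and 0.31 for OIP5-AS1 (0.00 to 0.64). The median of 6279 genes was 0.05, and 59.5% (OIP5-AS1) to 75.8% (NORAD) of them were lower. Again none of the 4 passed 2-fold, where 14.0% of the genes were higher and 26.6% lower. These shares are over a larger set of genes than in untreated cells and are not set against those. They too depend on the read minimum: with 20 reads OIP5-AS1 was above 50.7% of the genes and NORAD above 64.9%, and with 500 reads above 72.8% and 88.9%. Over the 46 lncRNAs with at least 100 reads, these 4 included, the median was 0.39, with 10 of them 2-fold higher and 5 lower. OIP5-AS1 was above 41.3% of those lncRNAs and NORAD above 65.2%.

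The change of the enrichment, the ratio after doxycycline minus that in untreated cells, was -0.16 for MALAT1 (-0.35 to 0.02), -0.15 for NEAT1 (-0.38 to 0.07), 0.19 for NORAD (-0.16 to 0.55) and -0.23 for OIP5-AS1 (-0.76 to 0.30). All 4 intervals included 0, and 1 of 4 lay above the median of -0.14 over 2946 genes. None changed 2-fold, where 15.6% of the genes did in either direction. Both statements depend on the scaling. With the median of ratios the change was -0.25 for MALAT1 (-0.43 to -0.06) and -0.24 for NEAT1 (-0.46 to -0.01). With total counts it was over 2-fold higher for all 4, at 1.51 for MALAT1, 1.52 for NEAT1, 1.86 for NORAD and 1.43 for OIP5-AS1. Under TMM scaling the intervals leave room for a change of up to 0.35 for MALAT1 and 0.76 for OIP5-AS1 on the log2 scale.

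The size of these ratios rests on how the libraries are scaled. As a share of all reads that were not ribosomal, the 5 lncRNAs together made up 0.0908% of the untreated IgG library and 0.297% of the untreated EXOSC10 library, a 3.27-fold higher share. After doxycycline they made up 0.144% of the IgG library and 0.440% of the EXOSC10 library, 3.06-fold higher. With that total as the scale, the ratio of EXOSC10 over IgG was 1.79 for MALAT1, 1.70 for NEAT1, 1.51 for NORAD and 1.55 for OIP5-AS1 in untreated cells. After doxycycline it was 1.64 for MALAT1, 1.57 for NEAT1, 1.72 for NORAD and 1.34 for OIP5-AS1, so all 4 lncRNAs were then at least 2-fold higher. A scale moves nearly all genes by the same amount, so the place of the lncRNAs among all genes says nothing about which scale is right.

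**Figure D2:**
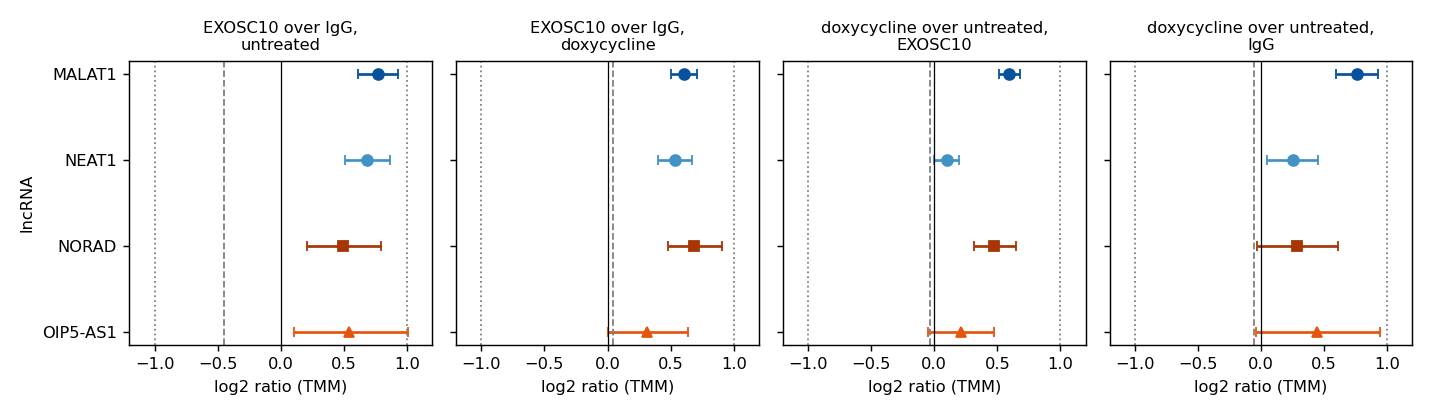
log2 ratios of TMM-scaled CPM for the 4 lncRNAs with at least 100 reads, in 4 comparisons of single libraries, with exact 95% counting intervals; the dashed line is the median gene and dotted lines mark 2-fold. Each point lies right of the median gene and left of 2-fold. In doxycycline over untreated, the intervals include 0 for NEAT1 and OIP5-AS1 with EXOSC10, and for NORAD and OIP5-AS1 with IgG.

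The second question was what doxycycline changed. In the EXOSC10 libraries the ratio of doxycycline over untreated was 0.59 for MALAT1 (0.51 to 0.68), 0.10 for NEAT1 (-0.00 to 0.20), 0.48 for NORAD (0.31 to 0.65) and 0.21 for OIP5-AS1 (-0.05 to 0.47). MALAT1 and NORAD had intervals above 0 and were above 84.9% and 80.7% of 6584 genes, whose median was -0.04. NEAT1 and OIP5-AS1 had intervals that included 0. With the upper quartile as the scale these intervals were 0.08 to 0.28 for NEAT1 and 0.04 to 0.56 for OIP5-AS1, and with the non-ribosomal total 0.16 to 0.36 and 0.12 to 0.64, all above 0. None of the 4 was 2-fold higher, where 6.06% of the genes were, or 2-fold lower, where 3.98% were. Over the 50 lncRNAs compared, these 4 included, the median was 0.13. NEAT1 was above 44% of them and MALAT1 above 74%.

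In the IgG libraries, which show the RNA recovered without the EXOSC10 antibody, the same ratio was 0.76 for MALAT1 (0.59 to 0.93) and 0.25 for NEAT1 (0.05 to 0.45). NORAD was at 0.28 (-0.03 to 0.61) and OIP5-AS1 at 0.44 (-0.04 to 0.94). MALAT1 was above 94.0% of the 3027 genes, whose median was -0.05. Over the 15 lncRNAs compared, these 4 included, the median was 0.24. MALAT1 was above 80% of them and NEAT1 above 60%. None of the 4 passed 2-fold, where 2.97% of the genes were higher and 3.44% lower. The higher level of MALAT1 after doxycycline was thus present with IgG too. With total counts as the scale, MALAT1 was at 0.10 in the IgG libraries with an interval that included 0 (-0.07 to 0.27), and NEAT1, NORAD and OIP5-AS1 were at -0.40, -0.37 and -0.21. Ribosomal RNA took 83.8% of the doxycycline IgG library and 71.7% of the untreated one, and its part in these ratios was not tested.

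**Figure D3:**
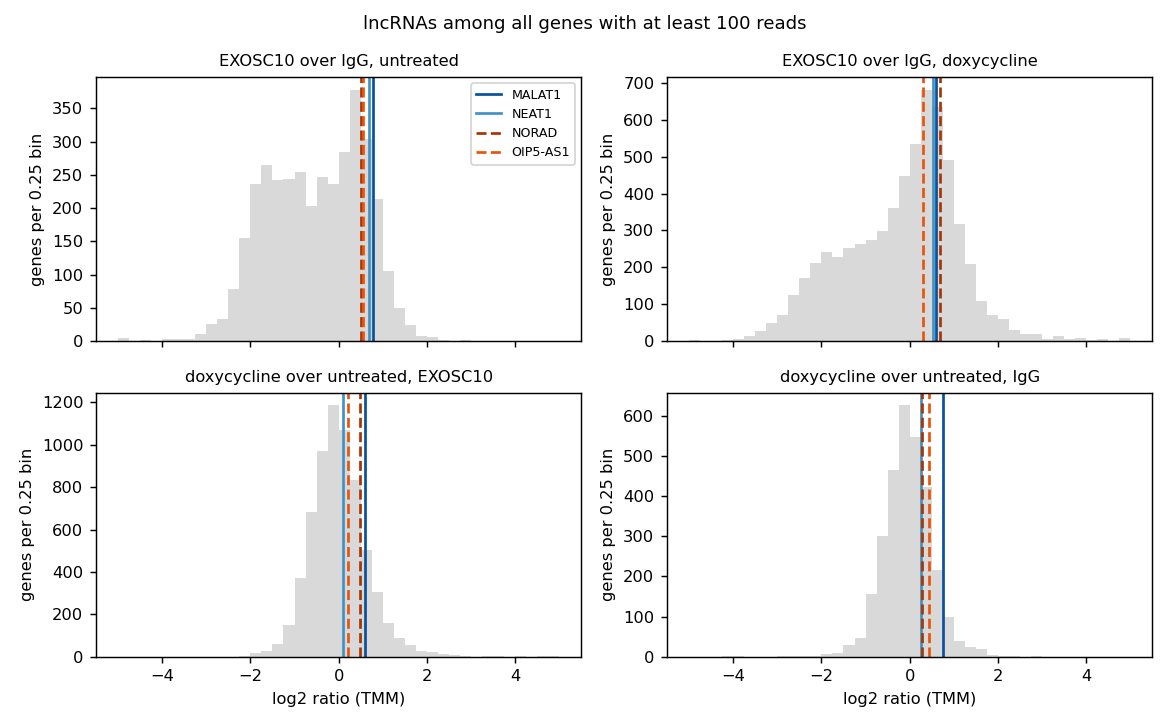
Number of genes (at least 100 reads) per bin of 0.25 on the log2 ratio of TMM-scaled CPM in 4 comparisons, with vertical lines at MALAT1, NEAT1, NORAD and OIP5-AS1. In EXOSC10 over IgG in untreated cells the genes spread widely below 0 and the 4 lines stand on the right flank, between 0.49 and 0.77. In doxycycline over untreated with EXOSC10, NEAT1, at 0.10, lies near the centre.

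Scale-free comparisons between the lncRNAs come from their reads within a library. MALAT1 had 1.27 reads for each read of NEAT1 in the untreated IgG library (1.10 to 1.47) and 1.35 in the untreated EXOSC10 library (1.24 to 1.46). After doxycycline it had 1.81 in the IgG library (1.62 to 2.02) and 1.90 in the EXOSC10 library (1.82 to 1.99). The intervals of the untreated libraries overlapped each other and lay below those of both doxycycline libraries. As a difference of log2 ratios, MALAT1 minus NEAT1 was 0.50 between the EXOSC10 libraries (0.37 to 0.63) and 0.51 between the IgG libraries (0.25 to 0.77).

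Of the 6 pairs among the 4 lncRNAs, the interval of the difference excluded 0 for 0 pairs in EXOSC10 over IgG in untreated cells and for 1 pair after doxycycline, NORAD above OIP5-AS1 by 0.38 (0.00 to 0.75). It excluded 0 for 3 pairs in doxycycline over untreated in the EXOSC10 libraries, where MALAT1 was also above OIP5-AS1 by 0.38 and the difference of NEAT1 from NORAD was -0.38. In the IgG libraries it did so for 2 pairs, MALAT1 above NEAT1 and MALAT1 above NORAD by 0.47. These intervals are not adjusted for the number of pairs. With the reads of TALAM1, a gene on the other strand of MALAT1, added to MALAT1, 2 of these no longer excluded 0: MALAT1 minus OIP5-AS1 with EXOSC10 was 0.24 (-0.02 to 0.51) and MALAT1 minus NORAD with IgG was 0.24 (-0.11 to 0.58).

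The pooled share of the nuclear RNAs was alike within counting error in the 4 libraries. MALAT1 and NEAT1 together took 79.9% of the reads of the 5 lncRNAs with IgG (77.2 to 82.4) and 82.3% with EXOSC10 (80.9 to 83.6) in untreated cells. After doxycycline they took 82.0% with IgG (80.1 to 83.7) and 82.1% with EXOSC10 (81.3 to 82.8). The 4 intervals overlapped. The nuclear pair minus the cytoplasmic trio on the log2 scale was 0.23 in EXOSC10 over IgG in untreated cells (-0.04 to 0.49) and 0.01 after doxycycline (-0.18 to 0.20). A nuclear preference of more than 0.49 in the EXOSC10 library therefore lies outside the counting interval in either state. The pooled share hides that MALAT1 and NEAT1 moved apart. Without MALAT1, NEAT1 alone held 63.6% (59.3 to 67.7) of the remaining reads with IgG and 66.4% (64.0 to 68.7) with EXOSC10 in untreated cells. After doxycycline it held 61.8% (58.4 to 65.1) with IgG and 61.2% (59.8 to 62.6) with EXOSC10. Between the EXOSC10 libraries these intervals did not overlap, and NEAT1 minus NORAD was -0.38 (-0.57 to -0.19).

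**Figure D4:**
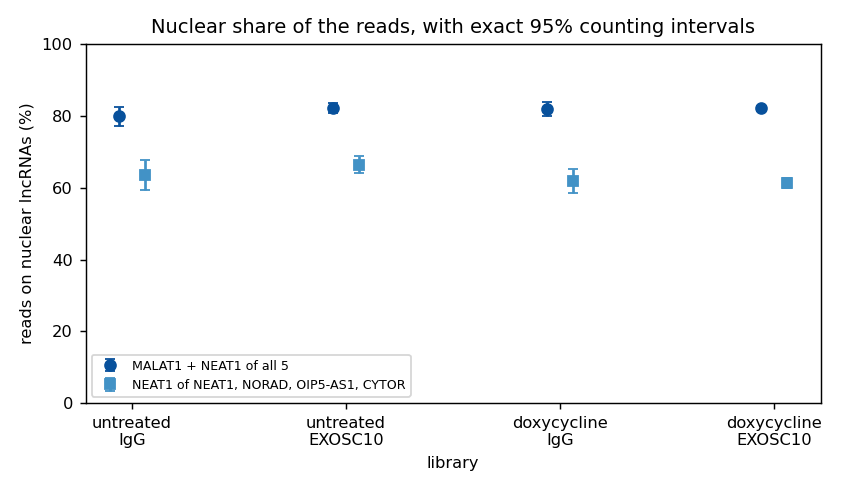
Percentage of lncRNA reads on the nuclear members in each library, with exact 95% counting intervals: MALAT1 and NEAT1 among all 5 (circles), and NEAT1 among the 4 without MALAT1 (squares). The circles lie between 79.9% and 82.3%, and the squares between 61.2% and 66.4%.

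Genes that overlap the lncRNAs bear on 2 of them. TALAM1 (chr11:65499312-65507432), a transcript from the opposite strand of MALAT1, shares 7205 bases with it. Its reads numbered 118 with IgG and 258 with EXOSC10 in untreated cells, and 76.3 and 409 after doxycycline. Its share of the reads of both genes was 21.6% (18.2 to 25.3), 15.2% (13.6 to 17.0), 7.56% (6.00 to 9.37) and 6.70% (6.08 to 7.35) in the same order, lower in both doxycycline libraries than in both untreated ones. Its ratio of doxycycline over untreated was -0.73 with EXOSC10 (-0.96 to -0.50) and -0.99 with IgG (-1.43 to -0.56), on the other side of 0 from MALAT1 under TMM scaling. Scaling by total counts moves the median gene by 1.01 with EXOSC10, which is more than the distance of TALAM1 from 0. MALAT1 alone came within 0.1 of a whole number of reads in 1 of 4 libraries, and so did TALAM1, while their sum did so in 4 of 4, as did NEAT1, NORAD and OIP5-AS1. The reads of the locus had thus been divided between both symbols. The strand setting of the counting is not given in the sources used here, and without strand the reads of MALAT1 and TALAM1 cannot be told apart.

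The sum of MALAT1 and TALAM1 does not depend on that division. Its ratio of EXOSC10 over IgG was 0.66 in untreated cells and 0.59 after doxycycline. Its ratio of doxycycline over untreated was 0.46 in the EXOSC10 libraries and 0.52 in the IgG libraries, against 0.59 and 0.76 for MALAT1 alone. Per read of NEAT1 the sum had 1.62 reads in the untreated IgG library (1.41 to 1.86) and 1.59 in the untreated EXOSC10 library (1.47 to 1.72). After doxycycline it had 1.96 in the IgG library (1.76 to 2.18) and 2.04 in the EXOSC10 library (1.95 to 2.13). The difference from NEAT1 was 0.36 between the EXOSC10 libraries (0.23 to 0.49) and 0.27 between the IgG libraries (0.02 to 0.52), so it was smaller than for MALAT1 alone and these 2 intervals still lay above 0.

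OIP5-AS1 shares 4066 bases with the coding gene OIP5 (chr15:41309273-41332591) on the other strand. OIP5 had 0.0704, 0.117 and 0.188 of a read in the untreated IgG, untreated EXOSC10 and doxycycline IgG libraries and 43.0 reads in the doxycycline EXOSC10 library. Entries of the table had at least 10.0 reads in their highest library, and OIP5 reached that only in the doxycycline EXOSC10 library. The ratios with OIP5 added carry that selection. With OIP5 added, OIP5-AS1 had a ratio of 0.43 in EXOSC10 over IgG after doxycycline, against 0.31 alone, and of 0.33 (0.07 to 0.59) in doxycycline over untreated with EXOSC10, against 0.21 alone.

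The entries under 1 symbol can be different transcripts, which the table does not name. Of the 3 entries of MALAT1, the largest held 52.0% and 60.0% of its reads in the untreated IgG and EXOSC10 libraries and 58.2% and 45.9% in the doxycycline IgG and EXOSC10 libraries. With EXOSC10, the ratio of doxycycline over untreated was 0.21 for this entry and 1.01 and 1.08 for the other two. With IgG it was 0.92 for the largest and 0.56 and 0.55 for the others. The order of the entries was thus turned between both pairs of libraries. NEAT1 kept 66.8% to 71.9% of its reads in the larger of 2 entries. The largest of 3 entries of OIP5-AS1 held 66.6% and 54.2% of its reads in the untreated and doxycycline IgG libraries, and 93.1% and 93.3% in the EXOSC10 libraries. Its ratio of EXOSC10 over IgG was 1.02 in untreated cells and 1.09 after doxycycline, while the other entries of OIP5-AS1, with at most 39.8 reads in a library, had ratios from -2.43 to -1.38. How the authors divided reads between entries is not given in the sources used here, so these shares are the table's own.

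**Figure D5:**
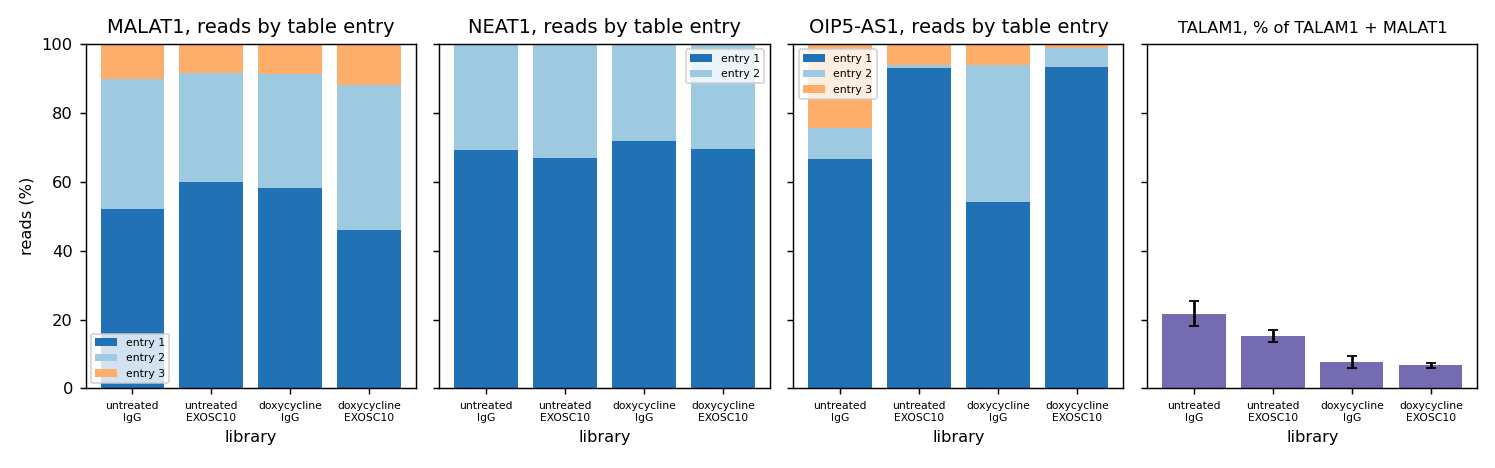
Percentage of reads on each table entry of MALAT1, NEAT1 and OIP5-AS1 in the 4 libraries (stacked bars), and TALAM1 as a percentage of TALAM1 plus MALAT1 with exact 95% counting intervals (right). The largest OIP5-AS1 entry fills 93.1% and 93.3% of the EXOSC10 bars, and TALAM1 is at 21.6% and 15.2% in untreated libraries and at 7.56% and 6.70% after doxycycline.

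With 1 library per group there are no replicates, and an additive fit over both factors can only take its error from the libraries themselves. The additive limma fit on log2(scaled CPM + 0.2) over 9594 genes had 1 residual degree of freedom. That residual is the change of enrichment given above, so a real change of enrichment counts as error in this fit. It was pooled with a prior of 7.55 degrees of freedom taken from all genes. No label states separate cultures, and the p-values do not measure a spread between replicates. For the antibody term, limma with Benjamini-Hochberg adjustment called 131 genes higher (1.37%) and 1523 lower (15.9%) with EXOSC10, and none of the 4 lncRNAs. MALAT1 was higher with EXOSC10 by 0.69 (SE 0.26, adjusted p = 0.117 by limma with Benjamini-Hochberg), in 2 of 2 pairs of libraries. NEAT1 was at 0.61 (SE 0.25, limma adjusted p = 0.137), NORAD at 0.59 (SE 0.25, limma adjusted p = 0.145) and OIP5-AS1 at 0.43 (SE 0.28, limma adjusted p = 0.325). For doxycycline the same limma fit called 0 genes (0%) after Benjamini-Hochberg adjustment, with 444 under an unadjusted p of 0.05, and MALAT1 was at 0.68 (SE 0.26, adjusted p = 0.850). CYTOR did not reach the level needed for the fit.

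The genes whose profile over the 4 libraries was most like a member's were found by the distance between centred log2 levels, among 5105 genes with at least 200 reads in all. For MALAT1 they were GNL3 (distance 0.106), GNL1 (0.111) and GPX1 (0.112). For NEAT1 they were TPP1 (0.0165), SHISAL1 (0.0509) and SLITRK6 (0.0533), and for NORAD ASB6 (0.0248), NACA (0.0282) and DENND2A (0.0498). OIP5-AS1 was nearest to C2CD2 (0.0427), MTIF2 (0.0713) and TOP3A (0.0884). The nearest for CYTOR were EHF (0.815), PKIB (1.61) and NEDD8 (1.63). CYTOR had 0.475 and 0 reads in the untreated libraries, so its profile there is set by the 0.2 added to each level. It also rests on the doxycycline EXOSC10 value that put CYTOR in the table. Its distances are therefore not set against those of the other members. The members themselves were left out of the 5105 genes. Ranked against these genes, the nearest other member was NORAD for MALAT1 (127th), OIP5-AS1 for NEAT1 (170th), NEAT1 for NORAD (147th) and NEAT1 for OIP5-AS1 (115th). At the other end, MALAT1 came 978th for NEAT1. All of these distances rest on 4 libraries.

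Other non-coding RNAs of the nucleus and the mRNAs of the proteins that bind MALAT1, NEAT1 and NORAD give the setting. Of 15 further nuclear non-coding RNAs, 6 could be compared in EXOSC10 over IgG in untreated cells. Their median was 0.54 against -0.45 for all genes. Past 2-fold were 0 of them, where 5.36% of all genes were higher and 36.1% lower. The list holds TALAM1, whose reads cannot be told apart from those of MALAT1 without strand, so it is not a separate measure. After doxycycline the median was 0.44, and 1 of 6 was past 2-fold, where 14.0% of all genes were higher and 26.6% lower. It was RN7SK, the RNA of the 7SK particle that holds back transcription elongation, at -1.02 after doxycycline and 0.97 before. TUG1, another nuclear lncRNA, stood near NORAD at 0.43 and 0.61, and RPPH1, the RNA of RNase P, at 0.50 and 0.47. In doxycycline over untreated with EXOSC10, 6 of the list had a median of -0.49 against -0.04 for all genes. Past 2-fold were 0 of them, where 6.06% of all genes were higher and 3.98% lower. RN7SK was at -0.65, RPPH1 at -0.78, TALAM1 at -0.73 and TUG1 at 0.04, against 0.59 for MALAT1 and 0.10 for NEAT1. With IgG, 5 had a median of -0.13 against -0.05, and 1 was past 2-fold, RN7SK at 1.34, where 2.97% of all genes were higher and 3.44% lower. With 5 or 6 genes, these counts are too small to be told apart from such shares. Further cytoplasmic lncRNAs were too low for the comparison in untreated cells, with 0 of 9 in the table at 100 reads. After doxycycline 2 of them could be compared, and both were more than 2-fold higher with EXOSC10, where 14.0% of all genes were, and above each of the members. Both reached 100 reads over the 2 libraries mainly through the EXOSC10 library, so this minimum favours genes that are high there. Just under the minimum, ZFAS1 with 96.2 reads was at 0.99 and SNHG6 with 74.0 reads at 0.49. DANCR was at 2.06 (1.18 to 3.30), and SNHG1, a host of small nucleolar RNAs with few reads in the IgG library, had an interval that starts at 2.88.

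The mRNAs of the partner proteins had lower medians than the lncRNAs. Over all genes 36.1% were 2-fold lower with EXOSC10 in untreated cells and 26.6% after doxycycline, and among genes with at least 500 reads the median was -1.52 and -1.01. Of 20 paraspeckle protein genes, 13 were 2-fold lower and 0 higher with EXOSC10 than with IgG in untreated cells (median -1.30), and 14 were lower and 0 higher after doxycycline (median -1.60). NONO, a core paraspeckle protein that NEAT1 recruits, was at -1.52 and -1.28. Of 14 nuclear speckle protein genes, 4 were 2-fold lower in untreated cells (median -0.69), a smaller share than over all genes, and 8 after doxycycline (median -1.28), with SON at -1.60 and -2.30 and SRRM2 at -0.02 and 0.01. Of 7 comparable genes for NORAD partners, 6 and 5 were 2-fold lower (medians -1.82 and -2.22), with PUM2 at -2.27 and -2.73. ELAVL1, which OIP5-AS1 binds, was at -0.96 and -2.24. These directions hold for TMM scaling, since total counts moved the median gene by 0.79 in untreated cells and 2.43 after doxycycline. In doxycycline over untreated, 0 genes of these paraspeckle, speckle and NORAD lists were past 2-fold with either antibody. Over all genes 6.06% were higher and 3.98% lower with EXOSC10, and 2.97% higher and 3.44% lower with IgG. Of 14 genes of the nuclear exosome and its cofactors, 5 could be compared in untreated cells and 3 were 2-fold lower, and after doxycycline 4 of 9 were lower and 1 higher. In doxycycline over untreated with EXOSC10, 9 of this list could be compared, with 1 past 2-fold higher and 1 lower. With IgG, 5 could be compared and 1 was past 2-fold, TENT4B at 1.09. The median of the list with IgG was 0.65 against -0.05 for all genes.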

How the data were processed

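RNA from 4 immunoprecipitations of LM2-4175 cells was sequenced, 1 library per group. STAR, Partek and hg38 are named per the submitters' processing notes, without versions, and the kit was SMARTer mRNA-seq, per the labels' protocols. The authors deposited CPM values, read as such because each column sums to 1000000 apart from a constant of 0.0001 per entry, which was taken off. How reads were assigned is not given in the sources used here.

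Each entry of the table had at least 10.0 reads in its highest library. Entries of a symbol were added up. Reads were estimated as CPM over the step of 1 read. Between 67.1% and 70.2% of genes lay within 0.05 of a whole read, so no count model was used, and limma took the place of a planned count test. Libraries were scaled by TMM (trimming 30% of ratios and 5% of levels). Ratios are on log2(scaled CPM + 0.2), which understates low genes, with exact Clopper-Pearson 95% intervals (normal ones for differences of ratios). A gene was compared with at least 100 reads and called past 2-fold. The limma fit (version 3.58.1, R 4.3.3) took genes with 10 reads in 2 libraries, with Benjamini-Hochberg adjustment at 0.05. Other values used Python 3.11.15, numpy 2.4.6, pandas 2.3.3 and scipy 1.17.1, and the scripts were tested on simulated data.

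The lncRNAs and lists were chosen with earlier results of these data known. Genes named are the members, the 3 most like each, overlapping or copied genes, and up to 4 of each list by reads. Some listed genes are left unnamed, and 1 item is not reported here. Start sequences and positions are RefSeq's (GRCh38.p14); 12545 of the symbols matched a current name, 206 an older one and 87 none.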

Additional observations from a re-analysis of the deposited data

How the results depend on the processing

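No paired analysis was possible because each group holds 1 library and the labels give no replicate numbers; the additive limma fit compares the antibodies within each treatment. Alternatives were scaling by total counts, by non-ribosomal total, by median of ratios or by upper quartile, other pseudocounts and read minimums, and overlapping genes added. A scaling moves nearly all genes by the same amount, so the place among all genes cannot test it, but the zero point moved. Total counts moved the median gene by 0.79 and 2.43 in EXOSC10 over IgG (untreated, doxycycline), by 1.01 in doxycycline over untreated with EXOSC10 and by -0.65 with IgG, where NEAT1 turned to -0.40. With total counts all 4 were at least 2-fold higher in both EXOSC10 over IgG ratios, in doxycycline over untreated with EXOSC10 and in the change of enrichment. The median of ratios put NEAT1 at -0.03 in doxycycline over untreated with EXOSC10, and took 0 out of the interval of the change for MALAT1 and NEAT1. The nuclear share became 63.6%, 66.4%, 61.8% and 61.2% without MALAT1, and 83.6% in the untreated EXOSC10 library with overlapping genes added.

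Genes called by limma for the antibody, 1654 in the reported fit, were 520 with total counts, 4089 with the non-ribosomal total and 0 without the trend; for doxycycline they were 11 with total counts and 4 without the filter, against 0. The limma adjusted p (Benjamini-Hochberg) for the antibody ranged from 0.0130 to 0.315 for MALAT1, 0.0130 to 0.355 for NEAT1, 0.0130 to 0.365 for NORAD and 0.0143 to 0.485 for OIP5-AS1, and only the non-ribosomal total gave values under 0.05. For doxycycline no setting tried called any of the 4.

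Genes past 2-fold, higher and lower, were 194 and 1305 in EXOSC10 over IgG in untreated cells, and became 1133 and 523 with total counts, 1385 and 305 with the non-ribosomal total, 1480 higher with a minimum of 20 reads, and 3 and 476 with 500. After doxycycline, 882 and 1670 became 5080 and 34, 3258 and 662, 2864 higher, and 40 and 735 in the same order. For doxycycline over untreated with EXOSC10, 399 and 262 became 3150 and 8 with total counts, 156 lower with the non-ribosomal total, 423 lower with the median of ratios, 1876 and 868 with 20 reads, and 5 and 40 with 500. With IgG, 90 and 104 became 12 and 803 with total counts, 621 and 549 with 20 reads, and 20 and 22 with 500. For the change of enrichment, 140 and 321 became 2275 and 11 with total counts, 889 and 1043 with 20 reads, and 13 and 91 with 500. The cause of these differences was not tested. Depth limits OIP5-AS1 (57.0 reads in its smallest library) and CYTOR most.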
